A study of Schizosaccharomyces pombe with 3 samples.

Results

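The genes *clr4*, *rik1*, *stc1*, *pcu4* and *raf2* encode the histone methyltransferase of fission yeast heterochromatin, subunits of its complex and a protein that binds it. They were chosen by name as the H3K9 methylation genes, as 5 of the 36 genes on the study's list of silencing factors, and by the probe numbers at which they had been located. They are covered by 66 of the 174063 numbered probes of a tiling microarray, with 61 probes of the other DNA strand between them. On each array, rRNA-depleted RNA of a *Schizosaccharomyces pombe* mutant, labelled with Cy5, was compared with that of a wildtype strain, labelled with Cy3. The study profiled heterochromatic repeats and RNA past gene ends with these arrays, and also checked the transcripts of silencing factors. Of the 3 arrays, 2 hold biological replicates of *dhp1-1* and 1 holds *din1Δ*, so that a value of *din1Δ* has no replicate. All cells were grown to log phase at 30°C in the rich medium YEA. *dhp1-1* is a temperature-sensitive allele of an essential gene, in which the end of the coding sequence is replaced by the *ura4*+ marker. The study describes 30°C as permissive for it. Its strain, p1088, also carries *leu1-32*, *ade6* DN/N, *ura4* DS/E and the reporters *otr1R(Sph1)::ura4*+ and *mat2::ade6*+. The *din1Δ* strain, p1044, lacks *din1*, and further markers of that strain and of the wildtype strains are not given in the sources used here. Each mutant had its own wildtype strain (p1087 for *dhp1-1* and p344 for *din1Δ*), so a difference between these strains is part of every difference between the mutants. The dyes were not swapped, so a dye effect of a probe cannot be told apart from a change of the transcript. Replicate 1 of *dhp1-1* was hybridised on the slide that also held *din1Δ*, and replicate 2 on a different slide. RNA came from whole cultures, in which fewer cells expressing a gene and less RNA per cell cannot be told apart. The genes *dhp1* and *din1* were not located among the probes, and their own signal was not analysed here.

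In fission yeast, heterochromatin at centromeres, telomeres and the mating type locus is marked by methylation of histone H3 at lysine 9. Clr4 is the enzyme that places this mark, and it works within a cullin-based ubiquitin ligase, the Clr4 complex. Pcu4 (also named Cul4) is the cullin scaffold, Rik1 is a WD-repeat protein related to the DDB1 adaptor of other cullin ligases, and Raf2 is a further subunit. Stc1 is a LIM-domain protein that links the RNA interference machinery to the complex. Dhp1 is a nuclear 5′ to 3′ exoribonuclease, the counterpart of Rat1 and Xrn2, and Din1 is its binding partner.

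Probe numbers follow the chromosomes and alternate between the strands, and a gene is a run of every other number. In the gene table of assembly ASM294v3, *clr4* (SPBC428.08C) and *stc1* (SPBP8B7.28C) lie on chromosome II, *rik1* (SPCC11E10.08) and *raf2* (SPCC970.07C) on chromosome III, and *pcu4* (SPAC3A11.08, listed there as *cul4*) on chromosome I. The run of *clr4* begins at probe 11912 and has 20 probes, that of *rik1* at 147636 with 7, that of *stc1* at 92774 with 9, that of *pcu4* at 165388 with 5 and that of *raf2* at 126497 with 25. The wildtype channel gives a check on these positions that does not use the ratios. Over *rik1* the mean wildtype brightness (log2 of the background-corrected intensity) was 10.22 and 10.25 on the *dhp1-1* arrays and 10.44 on the *din1Δ* array, with 7 of 7 probes well above background on each. On the strand opposite *rik1* it was 6.64, 7.48 and 6.94, and over the 10 probes before the gene on its own strand it was 6.72, 7.53 and 6.99. Over *stc1* the brightness was 10.04, 10.81 and 10.58, against 7.07, 7.93 and 7.54 on the opposite strand, and over *pcu4* it was 9.12, 9.64 and 9.35, against 6.65, 7.12 and 6.76. These 3 genes thus stood out against the opposite strand. Against the flanks of their own strand this did not always hold. The 10 same-strand probes after *pcu4* averaged 9.04, 9.09 and 9.29, close to the gene itself. Those before *stc1* averaged 8.18, 8.69 and 8.53. *clr4* stood out less, with 8.42, 8.91 and 8.91 on its strand and 7.40, 7.85 and 7.60 on the other. Over *raf2* the brightness was 9.61, 9.74 and 9.67, but the first 4 probes of its run lay at the wildtype background, apart from probe 126501 on the *din1Δ* array. The position of *raf2* was not unique, because 5 runs of equal length matched it. The last of them, from probe 126505 to 126553, was above background at all 25 probes on all 3 arrays, and values for it are given beside those of *raf2* where they differ.

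**Figure D1:**
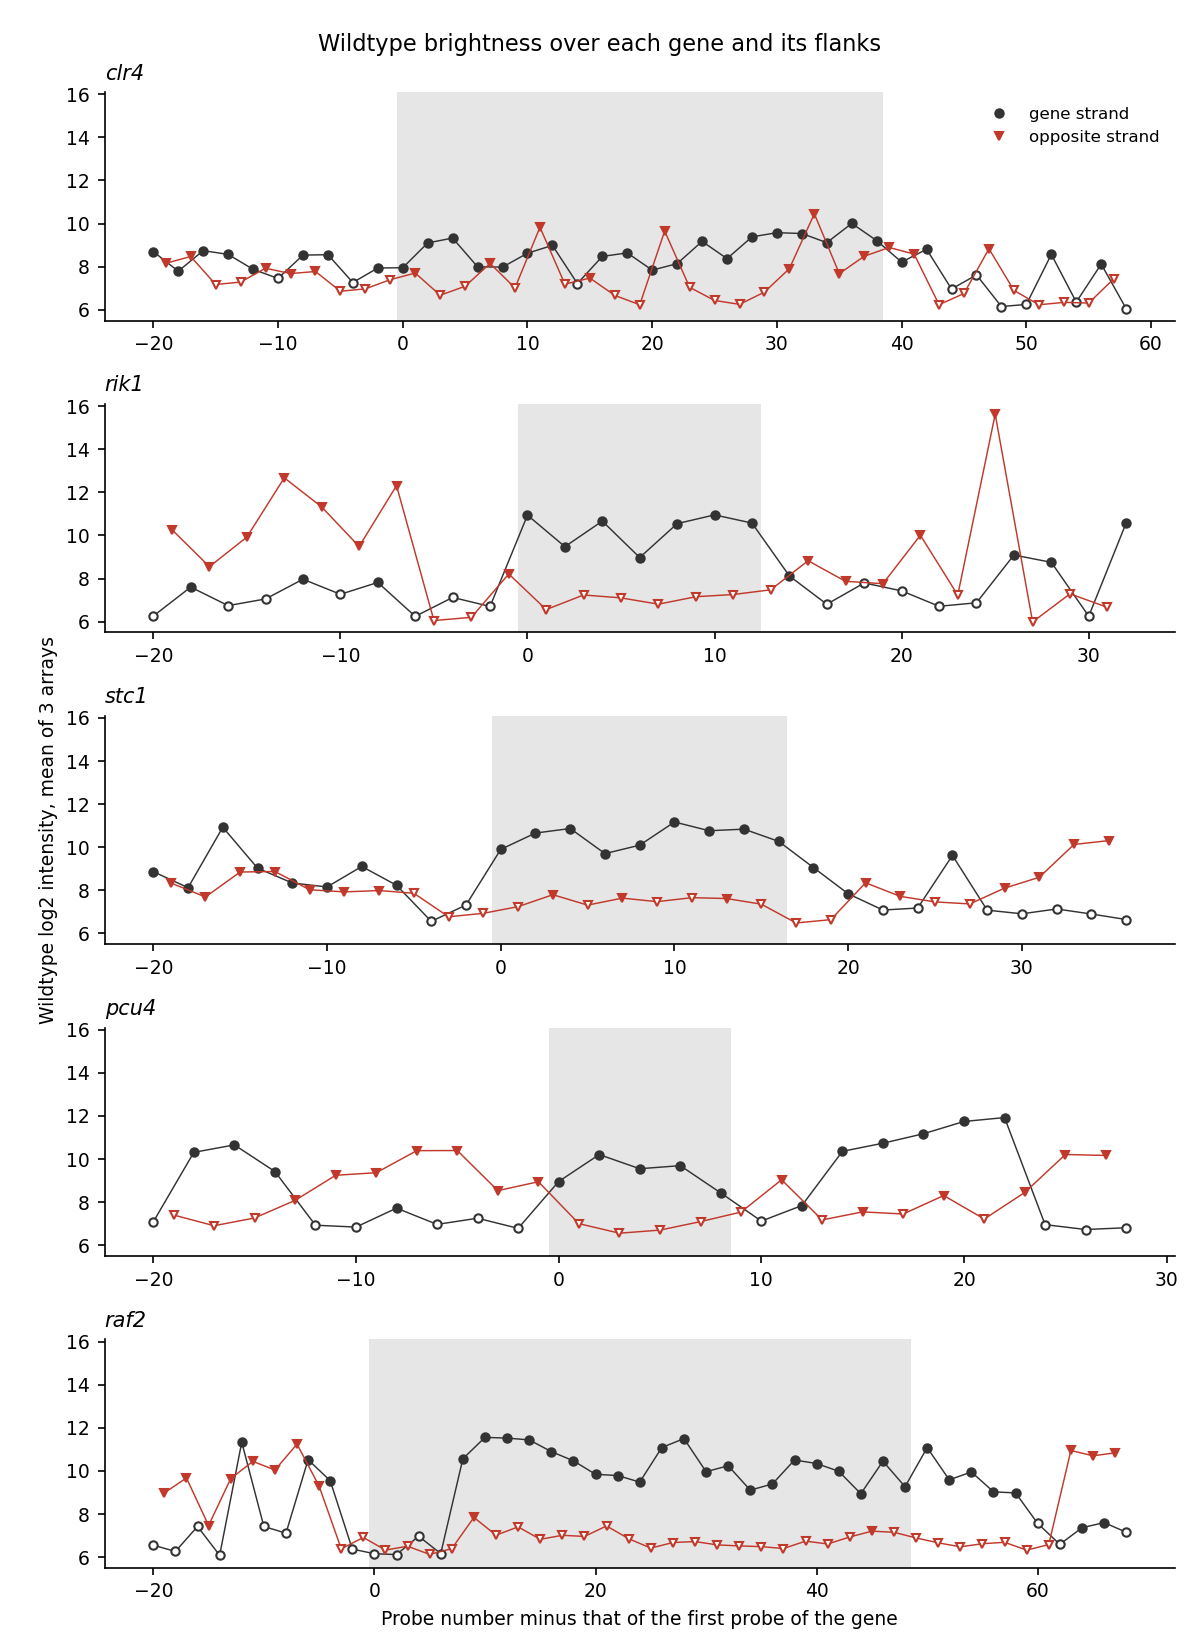
Wildtype brightness (log2 intensity, mean of the 3 arrays) against the probe number counted from the first probe of each gene, with the run of the gene shaded. Black circles are probes of the gene strand and red triangles are probes of the opposite strand. Open symbols are probes not well above background on all 3 arrays. *rik1*, *stc1* and *pcu4* are brighter on the gene strand than on the opposite strand, while the first 4 gene-strand probes of *raf2* lie at background. Bright gene-strand probes also follow the run of *pcu4*, after dimmer ones.

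In *dhp1-1*, the mean ratios of the 5 genes were below wildtype, from -0.29 for *rik1* to -0.07 for *raf2* as log2(mutant/wildtype), and *rik1* alone passed the test. In replicate 1 by itself *stc1*, *pcu4* and *raf2* were at 0.01 to 0.02, so that only *clr4* and *rik1* were below wildtype on both arrays. In *din1Δ* the ratio was above wildtype for *rik1*, *stc1*, *pcu4* and *raf2* and below it for *clr4*. *rik1* therefore lay on opposite sides of wildtype in the mutants, and its difference between them passed the test as well. A ratio is the mean over the probes of a gene, after background correction and loess normalization of each array. It was tested with limma, with p-values adjusted by the Benjamini-Hochberg method over 8743 features, of which 8702 are tiles of 20 same-strand probes across the array. An adjusted p under 0.05 passed. The standard errors and intervals rest mostly on variance borrowed across features (20.2 prior degrees of freedom), and little on the spread of the arrays themselves. The test of *dhp1-1* against wildtype passed for 29.2% of all features (10.4% lower and 18.7% higher in *dhp1-1*), and the difference between the mutants passed for 13.4% (4.62% lower in *dhp1-1*). A count of 1 of 5 genes called in each comparison is too small to set apart from these shares. The median ratio of the 5 genes was -0.10 in *dhp1-1* and 0.20 in *din1Δ*, against 0.02 and 0.01 over all tiles. Over the 857 tiles with all probes above background the medians were -0.10 and -0.04. The *din1Δ* array alone allows no test, and in the difference it is assumed to vary like the *dhp1-1* arrays.

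**Figure D2:**
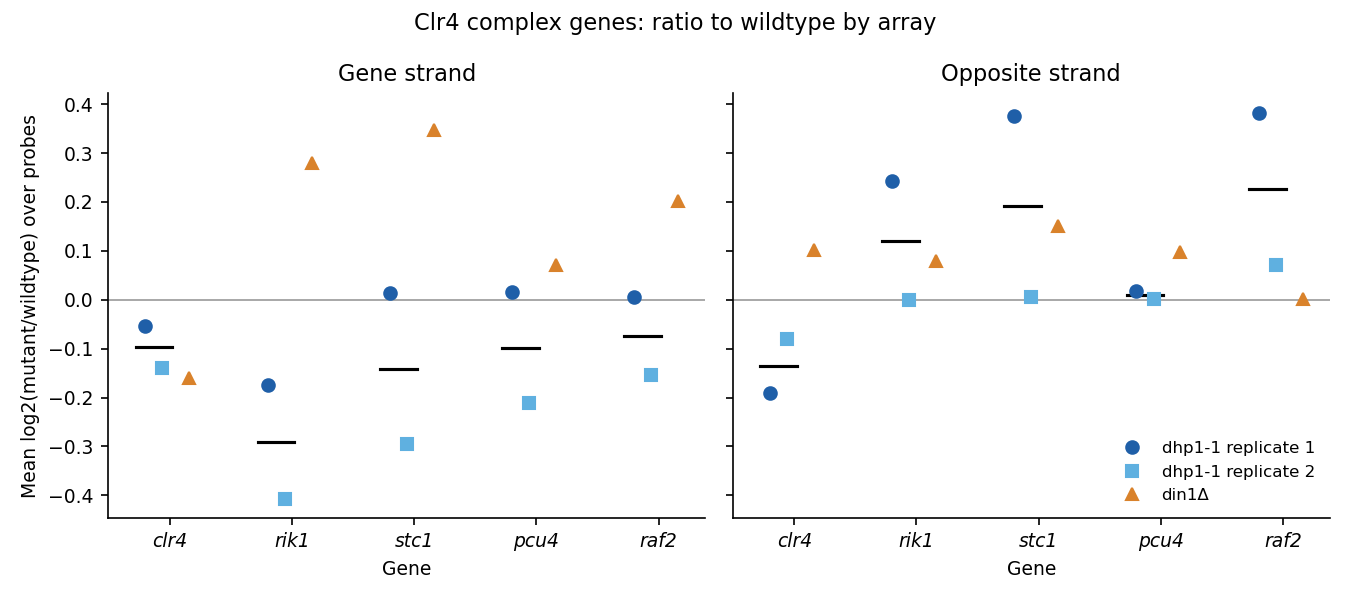
Mean log2(mutant/wildtype) over the probes of each gene, on the gene strand (left) and the opposite strand (right), with 1 point per array. Black bars are the mean of the 2 *dhp1-1* replicates. On the gene strand *dhp1-1* replicate 2 lies below replicate 1 for all 5 genes, and *din1Δ* lies above both for each gene but *clr4*.

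*clr4*, the gene of the methyltransferase itself, had log2 ratios of -0.05 and -0.14 in the *dhp1-1* replicates and -0.16 in *din1Δ*. All 3 values lay just below wildtype, and *din1Δ* was the lowest. The mean of *dhp1-1* was -0.10 ± 0.06 (SD, n = 2), with a 95% confidence interval of -0.28 to 0.09 (adjusted p = 0.453 from limma). *dhp1-1* minus *din1Δ* was 0.06 (interval -0.26 to 0.38, adjusted p = 0.851 from limma). Along the gene the *dhp1-1* ratios ran on both sides of 0. Both replicates were below 0 at 6 of the 19 probes that had a value on every array, probe 11918 being an outlier spot in replicate 2. The lowest probe was the first, 11912, at -0.33 and -0.76 in *dhp1-1* and 0.40 in *din1Δ*. It is also the only *clr4* probe that passed the test as a single probe, both against wildtype (adjusted p = 0.0194 from limma) and against *din1Δ* (adjusted p = 0.0346 from limma). The highest mean was at probe 11940, with 0.16 and 0.27 in *dhp1-1* and -0.17 in *din1Δ*. In *din1Δ*, 17 of the 20 probes lay below 0, down to -0.57 at probe 11932.

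*rik1*, the gene of the DDB1-like subunit, had log2 ratios of -0.17 and -0.41 in the *dhp1-1* replicates and 0.28 in *din1Δ*. Both *dhp1-1* arrays were below wildtype, and the *din1Δ* array was above it. The mean of *dhp1-1* was -0.29 ± 0.16 (SD, n = 2), a ratio of 0.818 to wildtype, with a standard error of 0.09 and an interval of -0.48 to -0.10 (adjusted p = 0.0194 from limma). *dhp1-1* minus *din1Δ* was -0.57, with a standard error of 0.16 and an interval of -0.90 to -0.24 (adjusted p = 0.0187 from limma). In *din1Δ* the ratio to wildtype was 1.21. Every probe showed the same order of the mutants, as both *dhp1-1* replicates lay below *din1Δ* at 7 of 7 probes. The probes of a gene read the same arrays and are not replicates. Both replicates lay below 0 at 6 of the 7, and *din1Δ* lay above 0 at 7 of 7. Replicate 2 ran below replicate 1 at 6 of the 7 probes. The lowest probe was 147642, at -0.19 and -1.01 in *dhp1-1*, and it was the only *rik1* probe to pass as a single probe (mean -0.60, adjusted p = 0.0090 from limma). The highest *dhp1-1* mean was at the last probe, 147648, with 0.14 and -0.25. In *din1Δ* the probes ranged from 0.05 at 147638 to 0.47 at 147640. The size of the *dhp1-1* ratio rested on replicate 2, without which it was -0.17, and both calls were lost under 5 of the 8 processing alternatives tested, with ratios of -0.35 to -0.23 in *dhp1-1*. Among these, the deposited table called few features at all, 10 higher and 3 lower of 8743 in *dhp1-1* and 0 in the difference. Between the arrays of the shared slide, replicate 1 minus *din1Δ* was -0.45, with no test.

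*stc1*, the gene that ties RNA interference to the complex, had log2 ratios of 0.01 and -0.30 in the *dhp1-1* replicates and 0.35 in *din1Δ*. The replicates lay apart from each other, and *din1Δ* lay above both. The mean of *dhp1-1* was -0.14 ± 0.22 (SD, n = 2; interval -0.34 to 0.05, adjusted p = 0.288 from limma). *dhp1-1* minus *din1Δ* was -0.49, with a standard error of 0.16 and an interval of -0.83 to -0.15, which missed the threshold (adjusted p = 0.0505 from limma) and did so under all 8 alternatives tested (adjusted p from 0.100 to 0.421). As for *rik1*, both *dhp1-1* replicates lay below *din1Δ* at every probe, here 9 of 9, and *din1Δ* lay above 0 at all 9. Here too the probes share the same arrays and are not replicates. Replicate 2 was below replicate 1 at 8 of the 9. The lowest *dhp1-1* mean was at the first probe, 92774, with -0.19 and -0.59, against 0.55 in *din1Δ*, and it was the only *stc1* probe to pass in the difference between the mutants (adjusted p = 0.0372 from limma). The highest was at 92784, with 0.20 and 0.07 in *dhp1-1*. In *din1Δ* the probes ran from 0.05 at 92776 to 0.56 at 92790. The 10 same-strand probes before *stc1* had means of -0.20, -0.30 and 0.26 on the same arrays, so that the order of the mutants was the same in that neighbouring stretch. The 10 probes after it were at 0.05, 0.07 and 0.13.

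*pcu4*, the cullin gene, had log2 ratios of 0.02 and -0.21 in the *dhp1-1* replicates and 0.07 in *din1Δ*. The replicates straddled wildtype, and *din1Δ* was close to replicate 1. The mean of *dhp1-1* was -0.10 ± 0.16 (SD, n = 2; interval -0.29 to 0.09, adjusted p = 0.463 from limma), and *dhp1-1* minus *din1Δ* was -0.17 (interval -0.50 to 0.16, adjusted p = 0.571 from limma). Its 5 probes spread widely for so few. The first, 165388, was the lowest in *dhp1-1*, with -0.23 and -0.71, and the last, 165396, was the highest, with 0.22 and -0.02. Probe 165396 was also the highest in *din1Δ*, at 0.65, while 165390 was the lowest there, at -0.26. Without the end probes the difference between the mutants changed sign, to 0.072.

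*raf2*, which encodes a further subunit, had log2 ratios of 0.01 and -0.15 in the *dhp1-1* replicates and 0.20 in *din1Δ*. *din1Δ* again lay above both replicates, which were close to wildtype. The mean of *dhp1-1* was -0.07 ± 0.11 (SD, n = 2; interval -0.26 to 0.11, adjusted p = 0.585 from limma), and *dhp1-1* minus *din1Δ* was -0.28 (interval -0.60 to 0.05, adjusted p = 0.279 from limma). Over the last matching run the ratios were 0.01, -0.20 and 0.22. Replicate 2 was below replicate 1 at 21 of the 25 probes, and both were below *din1Δ* at 17 of the 25. On every array the ratios were lower over the high-numbered part of the run. Over the 12 lowest-numbered and the 12 highest-numbered probes they were 0.12 and -0.10 in replicate 1, -0.07 and -0.23 in replicate 2, and 0.25 and 0.08 in *din1Δ*. Whether the lower numbers are the 5′ end of the gene was not determined. The lowest *dhp1-1* mean was at probe 126531, with -0.20 and -0.48, and the highest at 126499, with 0.16 and 0.21, a probe not above background in either channel. In *din1Δ* the ratios of single probes were more uneven, from -0.36 at probe 126545 to 1.01 at 126521. Probe 126521, at -0.08 and -0.36 in *dhp1-1*, was the only *raf2* probe to pass in the difference between the mutants (adjusted p = 0.0033 from limma).

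**Figure D3:**
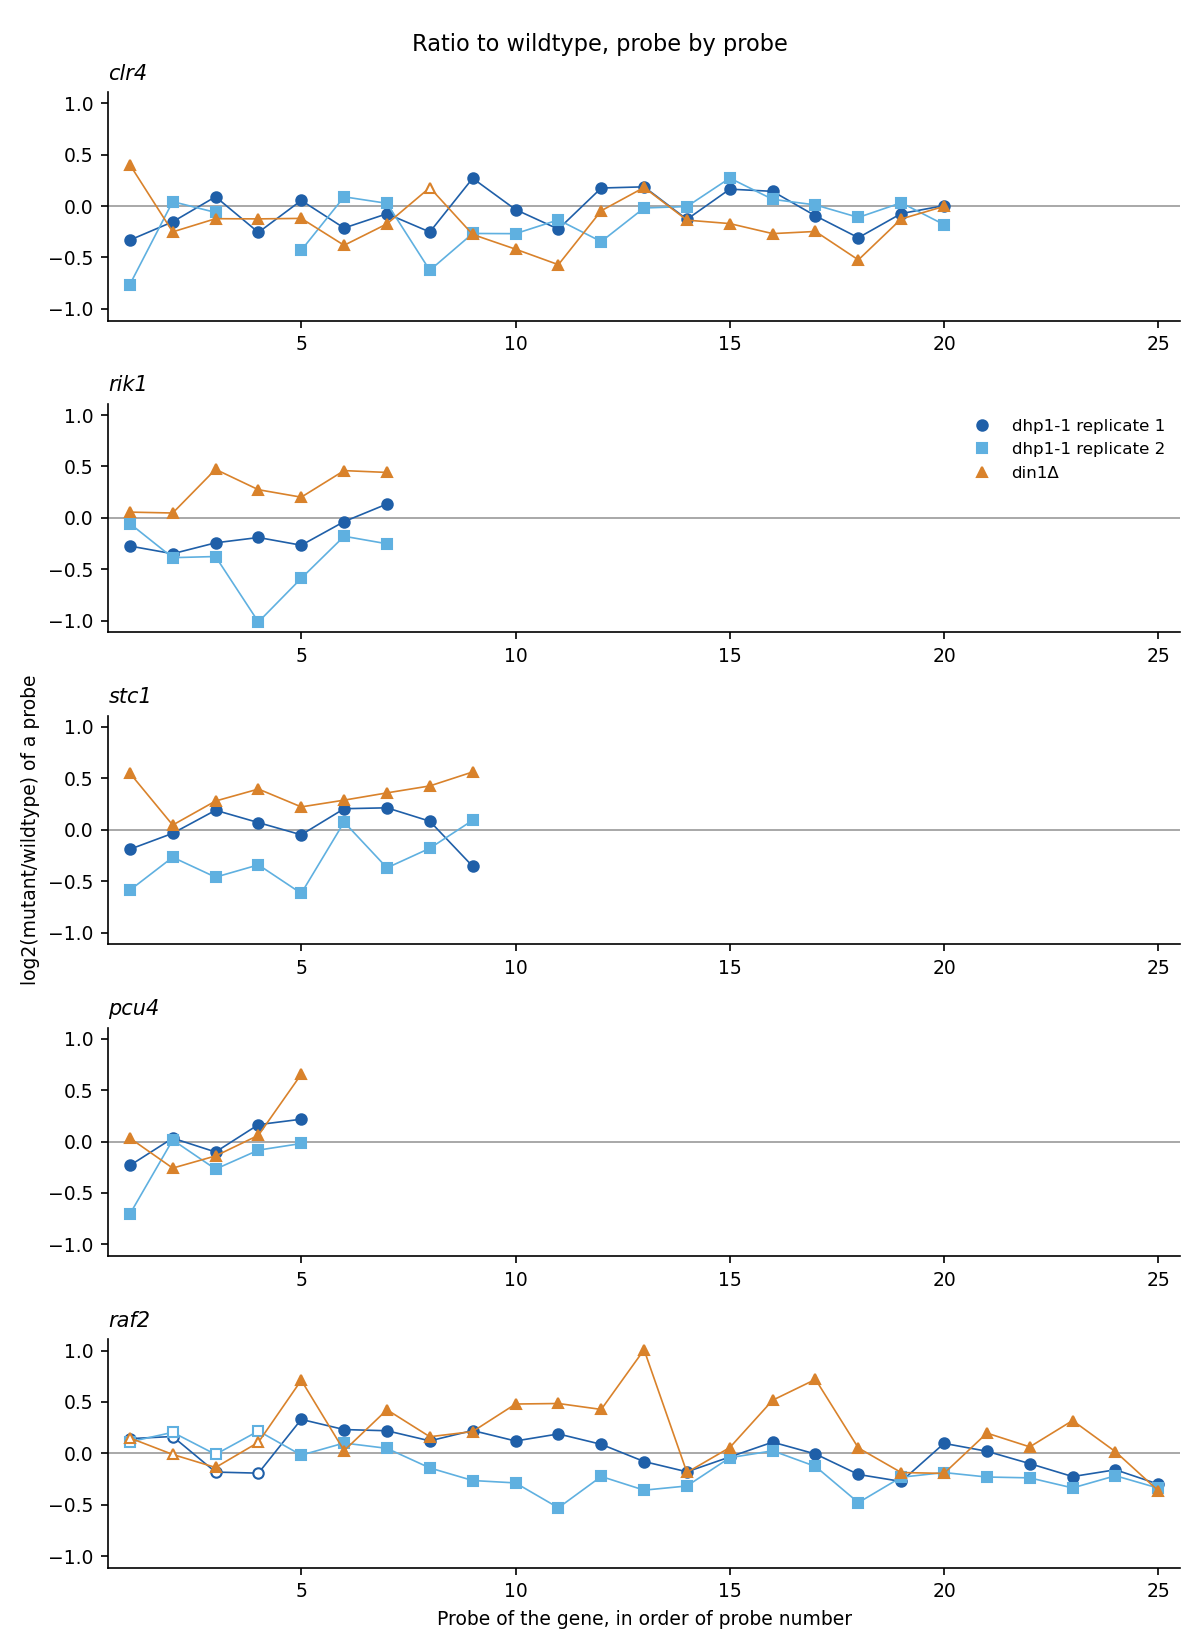
log2(mutant/wildtype) of each gene-strand probe against its order in the gene, for *dhp1-1* replicate 1 (dark circles), *dhp1-1* replicate 2 (light squares) and *din1Δ* (triangles). Open symbols are probes dim in wildtype (not well above background) on that array, and the gap in *clr4* is an outlier spot. Over *rik1* and *stc1* the *din1Δ* points lie above both *dhp1-1* replicates at all 7 and all 9 probes.

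Across the genes, *dhp1-1* replicate 2 was lower than replicate 1 for 5 of 5, by 0.09 for *clr4* to 0.31 for *stc1*. Over all tiles the median of replicate 2 minus replicate 1 was -0.04, with 58.2% of the tiles lower in replicate 2, and over the 857 tiles with all probes above background it was -0.06, with 62.5% lower. The replicates were made on different slides, and the part of the slide in this shift was not tested. Both replicates lay below *din1Δ* for *rik1*, *stc1*, *pcu4* and *raf2*, and above it for *clr4*. The share of tiles with *din1Δ* outside both replicates was not counted, so no weight is put on this order. Of the 65 gene-strand probes with a value on every array, 2 passed as single probes in *dhp1-1*, 1 in *clr4* and 1 in *rik1* and both lower, against 21.2% of the 172358 probes tested. In the difference between the mutants 3 passed, 1 each in *clr4*, *stc1* and *raf2* and all lower in *dhp1-1*, against 10.5%. The other 31 genes on the study's list, which include further silencing factors, had a median log2 ratio of -0.11 in *dhp1-1* and 0.03 in *din1Δ*. Of these, 9 passed in *dhp1-1*, 1 higher and 8 lower, against 29.2% of all features (18.7% higher and 10.4% lower). In *din1Δ*, 18 of the 31 were above 0, against 4529 of the 8702 tiles.

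The strands opposite *rik1*, *pcu4* and *raf2* were dim in wildtype, while 11, 11 and 10 of 19 probes opposite *clr4* and 7, 6 and 6 of 8 opposite *stc1* exceeded background. No opposite strand passed the test in either comparison. At an unadjusted p under 0.05 there was 1 of 5, that of *raf2*, in *dhp1-1* and 0 of 5 in the difference (limma). Over all 8743 features, 3379 had such a p in *dhp1-1* and 2202 in the difference. Opposite *clr4* the log2 ratios were -0.19 and -0.08 in *dhp1-1* and 0.10 in *din1Δ* (adjusted p = 0.278 for *dhp1-1* from limma). Opposite *rik1* they were 0.24 and -0.00 in *dhp1-1* and 0.08 in *din1Δ* (adjusted p = 0.357 from limma), and wildtype exceeded background at 2, 2 and 0 of the 6 probes. Here the last probe, 147647, passed as a single probe in *dhp1-1*, with 0.95 in replicate 1 and 0.15 in replicate 2 (adjusted p = 0.0193 from limma). It was 1 of 6 probes tested, against 21.2% of all probes tested. Opposite *stc1* the replicates lay far apart, at 0.38 and 0.01, and *din1Δ* was at 0.15 (adjusted p = 0.151 from limma). Opposite *pcu4* the ratios were 0.02, 0.00 and 0.10 (adjusted p = 0.951 from limma), and 0 of the 4 probes were above background in wildtype on replicate 2 and *din1Δ*. The *dhp1-1* means opposite *rik1* and *stc1* were thus above 0, at 0.12 and 0.19, where those of the genes were below it.

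Opposite *raf2* the log2 ratios were 0.38 and 0.07 in *dhp1-1* and 0.00 in *din1Δ*. The mean of *dhp1-1* was 0.23 ± 0.22 (SD, n = 2; interval 0.03 to 0.42, adjusted p = 0.0760 from limma), and the replicates differed by more than this mean. Of the 24 probes, 3, 5 and 4 exceeded background in wildtype on the 3 arrays, while 16 and 9 did in *dhp1-1* and 2 in *din1Δ*. Over the opposite strand of the last matching run the *dhp1-1* mean was 0.37 and passed (adjusted p = 0.0058 from limma), so the call depended on where *raf2* was placed. Of the 23 probes tested singly, 126538 and 126544 passed in *dhp1-1*, against 21.2% of all probes tested. The first was at 0.82 and 0.66 (adjusted p = 0.000762 from limma). Its mean mutant signal was 1.67-fold a wildtype signal that was not well above background. The second was at 1.41 and 0.77 (adjusted p = 1.98e-07 from limma). The fold of 126538 sets the mean mutant signal of the *dhp1-1* arrays against the measured wildtype signal, without a dye swap to balance dye bias. It is a measured ratio and not a lower bound. The measured wildtype signal was not below the dimmest signal well above background on each array.

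Over the run of *raf2* and just past it, the higher opposite-strand ratios lay at the high-numbered end. They were not confined to that side. The 10 opposite-strand probes before the run had means of 0.50 and 0.18 in *dhp1-1* and 0.15 in *din1Δ*. Single probes there reached 1.80 in replicate 1 and 0.98 in replicate 2. Over the 6 opposite-strand probes from 126542 to 126552, a stretch picked after its values were seen and therefore not tested, the mean log2 ratio was 1.43 in *dhp1-1* replicate 1, 0.68 in replicate 2 (5 probes with a value) and -0.05 in *din1Δ*. Each probe with a value was above 0 in both replicates, from 0.84 to 1.94 in replicate 1 and from 0.51 to 0.90 in replicate 2. All 6 probes exceeded background in the mutant channel of both *dhp1-1* arrays and 1 did in *din1Δ*, while wildtype exceeded it at 1, 2 and 2. For the 4 probes dim in wildtype on both *dhp1-1* arrays, the fold of the mean signal was 2.40 at 126546, 1.65 at 126548, 2.12 at 126550 and 1.84 at 126552. These too are measured ratios over both arrays and not lower bounds, and replicate 2 lay below replicate 1 at each of these probes. From probe 126560 onward the opposite strand was bright in wildtype, at 11.43, 10.51 and 10.90 on the 3 arrays, with log2 ratios of 0.10, 0.17 and 0.38 at that probe. Of the raised stretch, 126542 and 126544 lay opposite the run used for *raf2*, which ends at probe 126545. The probes from 126546 lay past that run and opposite the last matching run only. The stretch lay before a bright opposite-strand signal whose identity was not determined here. On the *raf2* strand, the 5 probes from 126543 to 126551, which interleave with this stretch, were at -0.30 to 0.08 in replicate 1 and -0.34 to 0.16 in replicate 2. Just past the stretch, single probes of both strands were raised in *dhp1-1*. Opposite-strand probe 126556 was at 0.64 and 1.00 (-0.15 in *din1Δ*), and *raf2*-strand probe 126557 at 1.72 and 1.13 (0.55 in *din1Δ*).

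**Figure D4:**
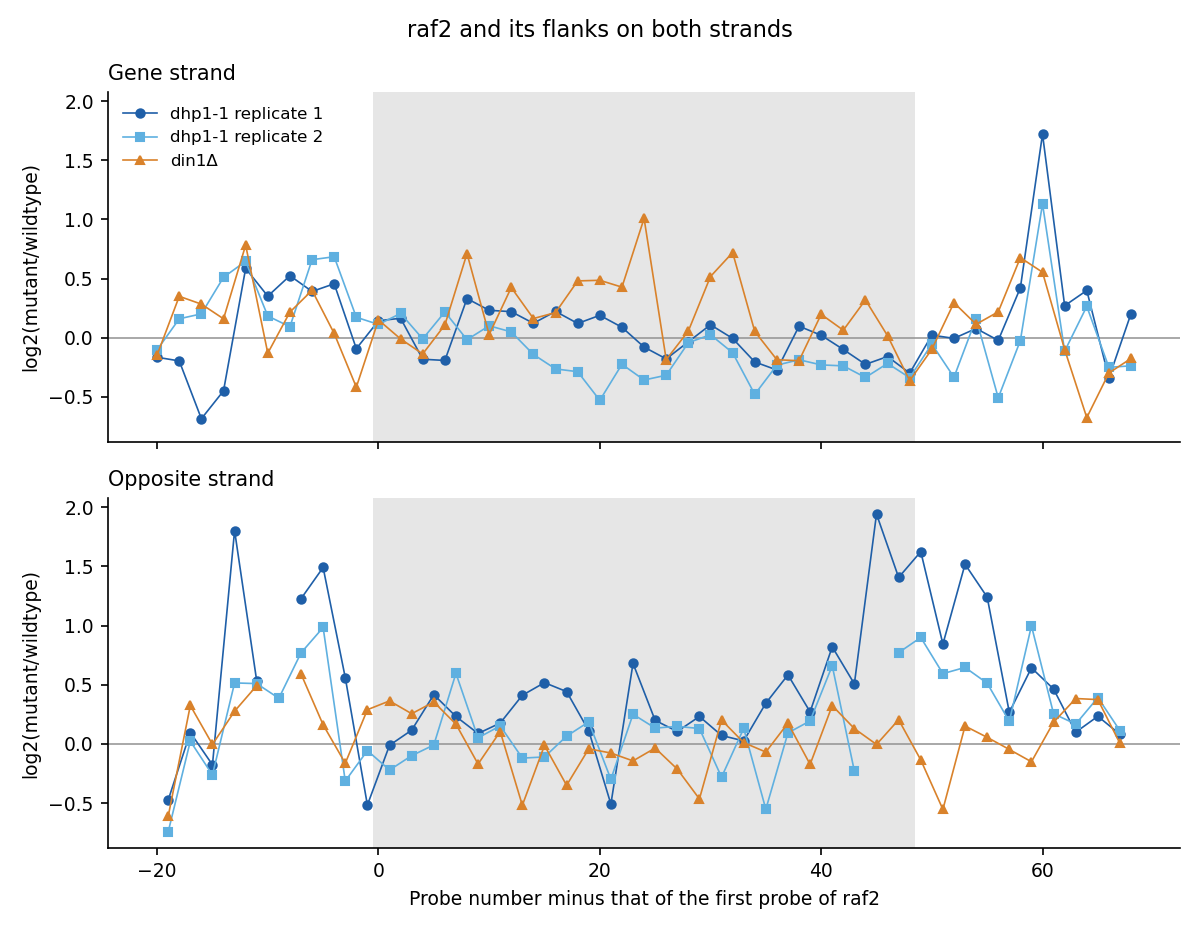
log2(mutant/wildtype) of single probes on the *raf2* strand (top) and the opposite strand (bottom), against the probe number counted from the first probe of *raf2*, with the run of the gene shaded and 1 line per array. On the opposite strand both *dhp1-1* replicates lie higher near the high-numbered end, up to 1.94 in replicate 1, where *din1Δ* stays between -0.55 and 0.20. Some opposite-strand probes before the run are raised as well, up to 1.80 in replicate 1.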

How the data were processed

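Scanner output was made by the authors in Feature Extraction 10.7.3.1. The deposited columns hold intensities of spots and of their local background, the log10 ratio of mutant to wildtype, a p-value of that ratio and flags of each spot. The deposited log2 ratio table holds the scanner ratio, set to 0 where that p-value was 0.05 or more. All 3 of its columns were used and 0 left out.

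Median spot intensities were background-corrected by normexp (offset 50) and loess-normalized in limma 3.58.1 (R 4.3.3), without control spots and outliers (295, 1345 and 645 of 177440 non-control spots on *dhp1-1* replicate 1, replicate 2 and *din1Δ*). There were 0 saturated spots, and wildtype was well above background at 71.2%, 66.8% and 66.8%. The number of arrays limits the precision. Probe ratios were averaged per gene and tile, summarised with Python 3.11.15 and pandas 2.3.3, and tested by lmFit and eBayes, mostly on variance borrowed across features. Genes had been placed by matching the study's listed values to deposited log2 means, which used *dhp1-1* replicate 1 and *din1Δ*. Scanner headers and the gene table differ in build, so no coordinates are given, and probe sequences were not used here. The members and lists were chosen with earlier results of these data known. All 5 members were named, and single probes only as a gene's extremes or where called, apart from the probes at the end of *raf2*. With 200 of 8702 features changed in simulated *dhp1-1* arrays, 23.5%, 98.0% and 100% were called at changes of 0.25, 0.5 and 1.0 on the log2 scale. The simulated noise was independent between features, and the real comparison called 29.2% of features, a larger share than was changed. The rates therefore need not hold for these arrays. The alternatives were other background correction, normalization and ratios, dropping dim probes, taking the median over probes, shorter runs, the slide, each replicate left out and, chosen after seeing the data, the last matching run of *raf2* and a filter on either channel. Values of 1 further gene of the list are not reported here.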

Additional observations from a re-analysis of the deposited data

Results flagged for a closer look

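*rik1* differed between the mutants by a test of the difference itself, which passed for 13.4% of all features (4.62% lower in *dhp1-1*). *dhp1-1* minus *din1Δ* was -0.57 on the log2 scale (adjusted p = 0.0187 from limma), from -0.17 and -0.41 in the *dhp1-1* replicates and 0.28 in *din1Δ*. The call was lost under 5 of 8 other ways of processing (adjusted p up to 0.397 from limma) and under the filter on either channel (0.0510). Among these, the deposited table called 0 of all features in the difference. Both *dhp1-1* replicates were lower at 7 of 7 probes, but these probes share the same arrays and are not independent. The wildtype strains differed as well, *din1Δ* has 1 array, and their part in the difference was not tested.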

How the results depend on the processing

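No paired analysis was possible because *dhp1-1* and *din1Δ* share only replicate number 1. The *rik1* ratio in *dhp1-1* kept its direction under all alternatives (-0.41 to -0.17), and 3 of 8 tested ones passed (adjusted p from 0.00495 to 0.321 from limma). Its difference from *din1Δ* ranged from -0.69 to -0.43, and 3 of 8 passed (adjusted p from 0.0091 to 0.397 from limma). The count of genes called fell from 1 to 0 in both comparisons under median centring (adjusted p of *rik1* 0.0580 and 0.0929 from limma), the scanner ratio (0.0939 and 0.152), the deposited table (0.321 and 0.397) and the filters on the wildtype channel (0.0634 and 0.0652), both channels (0.0893 and 0.107) and either channel. At an unadjusted p under 0.05, 1 gene stayed in *dhp1-1* and 1 or 2 in the difference, except 0 in both with the deposited table. Why the *rik1* calls were lost was not tested. Without replicate 1 or 2, no test was possible, since no residual degrees of freedom remain. Opposite strands called in *dhp1-1* rose from 0 to 1 under median centring, the scanner ratio and the last run of *raf2*. They rose to 2 with the wildtype-channel filter (of 3 left) and the either-channel filter (of 4 left). Under median centring it was that of *stc1* (0.36, adjusted p = 0.0352 from limma), and under the scanner ratio and the last run that of *raf2*. With the wildtype filter both were called, *stc1* at 0.35 over 3 of 8 probes (adjusted p = 0.0335 from limma). With the either-channel filter *pcu4* and *raf2* were. With the wildtype filter *raf2* rests on 2 probes in replicate 1 (1.02) and 1 in replicate 2 (0.05). The either-channel filter keeps probes that are bright in the mutant, and opposite *pcu4* 1 probe, so its calls are not counted as support. The *raf2* opposite strand ranged from 0.07 to 0.66 and passed in 4 of 10 (adjusted p from 9.98e-06, with the either-channel filter, to 0.696 from limma). The other silencing genes called fell from 9 to 4 under median centring, 5 with the both-channel filter and 0 with the deposited table (6 at an unadjusted p under 0.05, limma). Gene-strand probes called in *dhp1-1* went from 2 to 0 under median centring and the scanner ratio and to 3 without background correction, and in the difference from 3 to 1, 0 and 2. The fit over single probes of the deposited table was not used, because most of its residual variances are 0. Signs turned for values that had not passed. Without replicate 2 the *dhp1-1* ratio became 0.01 for *stc1*, 0.02 for *pcu4* and 0.0052 for *raf2*, and opposite *rik1* it became -0.0010 without replicate 1. Opposite *rik1* and *stc1* the difference became -0.08 and -0.14 without replicate 1. *dhp1-1* minus *din1Δ* became -0.0036 for *clr4* (deposited table) and 0.072 for *pcu4* (without end probes). Opposite *rik1* it became -0.18 (scanner), -0.21 (deposited) and -0.10 (without end probes), and opposite *stc1* -0.053 (scanner) and -0.026 (deposited). Opposite *pcu4* the *dhp1-1* ratio became -0.046 (scanner), -0.0012 (median over probes) and -0.073 (without end probes). Dim spots limit the opposite strands.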
